A study of Mus musculus with 2 samples.

Results

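Expression of 10 genes, the YAP target genes Cyr61 and Ctgf and the contractile genes Acta2, Tagln, Cnn1, Cnn2, Cnn3, Tpm1, Tpm2 and Myl9, was compared between macrophage cultures of Tipe1-deleted and control mice. The 10 genes were taken by symbol from a table of 46095 genes. They were chosen by their measured values in these same libraries, so their differences are given as a description and no test was made of them. YAP and its relative TAZ are transcriptional co-activators that enter the nucleus when cells spread, stretch or are released from Hippo kinase signalling, and act through TEAD DNA-binding factors. Cyr61 and Ctgf are their most used target genes. The contractile genes encode the actin, actin-binding and myosin proteins of smooth muscle and of myofibroblasts, and many of them are driven by serum response factor (SRF) with its MRTF co-activators through a DNA element called the CArG box. Macrophages build their own cortex largely from other members of the same protein families, though Cnn2 is also found in macrophages.

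The cells were bone marrow cells of C57BL/6 mice cultured for 5 days with 100 ng/ml macrophage colony-stimulating factor, which turns marrow progenitors into macrophages. The WT library came from mice labelled wild type, described in the series' design as carrying floxed Tipe1 without Cre. The KO library came from mice labelled TIPE1-/-, described as carrying LyzM-Cre, which is expressed from the Lyz2 locus in myeloid cells, with floxed Tipe1. There was 1 library per genotype, so no difference below has a replicate check (mice per library not given in the sources used here).

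The WT library held 11782664 counted reads and the KO library 15815956. WT and KO below stand for these libraries. Levels are given as CPM, reads scaled to a common library size of 1000000 after TMM normalisation, and intervals in parentheses are exact 95% intervals that cover counting error only. Tnfaip8l1, which encodes TIPE1, had 21 reads in WT and 3 in KO. The 16 macrophage markers held 22782 CPM in WT and 24067 CPM in KO, and all 16 were detected in both. A gene was tested when its mean over both libraries was at least 1 CPM, and was counted as lower or higher when the CPM plus 0.5 differed at least 2-fold.

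Of 12495 genes tested, 3.95% were lower in KO by at least 2-fold, 2.02% higher, and 1.76% lower by at least 4-fold. Of the 10 genes 8 passed the filter, of which 6 were at least 2-fold lower, 0 higher and 2 neither, and all 6 were also at least 4-fold lower. Since this contrast chose the genes, the count is not read against that background. Of the 8, 4 had less than 1 CPM in KO (Cyr61, Cnn3, Tpm2 and Myl9). These 4 passed the filter through the WT library alone, so they had to be higher in WT. Only 4 had at least 1 CPM in both libraries, namely Ctgf and Acta2, which were lower, and Cnn2 and Tpm1, which were not. Of the 6 lower genes only Ctgf and Acta2 averaged 10 CPM or more, so with the filter set there the count was 2. The 10 genes therefore split into 3 kinds. Cyr61, Ctgf, Acta2, Cnn3, Tpm2 and Myl9 were 13.5-fold or more lower, Cnn2 and Tpm1 were close to level, and Tagln and Cnn1 were near 0 or at 0 in both libraries. The gap at the 2-fold limit was wide. The member just inside it was Tpm2, with a log2 ratio of -3.11, and the member just outside it was Cnn2, with -0.38.

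**Figure D1:**
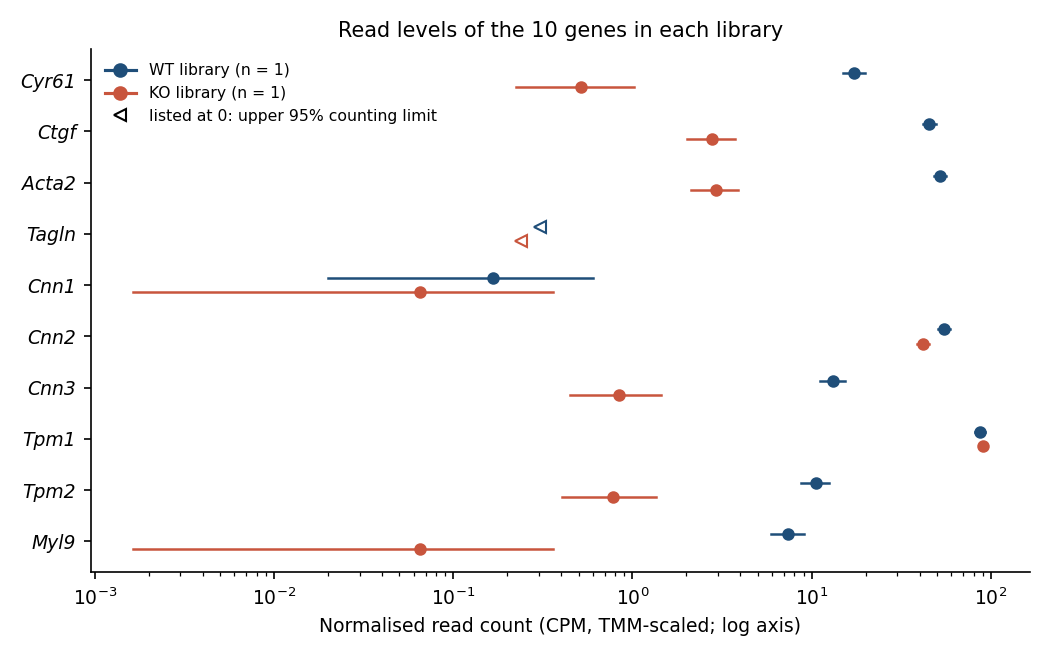
Normalised read count of each of the 10 genes in WT and in KO, on a log axis in CPM. Points are single libraries, lines are 95% counting intervals and open triangles mark the upper counting limit of a gene listed at 0. Cnn2 and Tpm1 lie between 41.9 and 90.3 CPM in both libraries, while the other detected genes apart from Cnn1 lie between 7.37 and 52.2 CPM in WT and at 2.92 CPM or less in KO.

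The promoters of 3 of the genes are shown first because they hold short sequence matches for TEAD and SRF, the DNA-binding factors named above. They also belong to genes that behaved differently. Binding of these factors was not measured. Cyr61 holds a TEAD core (GGAATG or its complement CATTCC), and Myl9 and Cnn2 each hold a CArG box. The stretches run 5′ to 3′ on the gene's own strand, upstream of the RefSeq start site in GRCm38.p6, with bases inside any annotated GENCODE M21 exon left off, and capitals mark the match. Cyr61 is on the minus strand (chr3:145649986-145650235), and Cnn2 (chr10:79988350-79988583) and Myl9 (chr2:156775214-156775419) on the plus strand.
Cyr61: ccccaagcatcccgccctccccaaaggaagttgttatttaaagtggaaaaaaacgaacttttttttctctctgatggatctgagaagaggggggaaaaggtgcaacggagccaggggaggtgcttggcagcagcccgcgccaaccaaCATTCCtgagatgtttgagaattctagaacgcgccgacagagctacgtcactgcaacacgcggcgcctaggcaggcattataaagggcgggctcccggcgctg
Myl9: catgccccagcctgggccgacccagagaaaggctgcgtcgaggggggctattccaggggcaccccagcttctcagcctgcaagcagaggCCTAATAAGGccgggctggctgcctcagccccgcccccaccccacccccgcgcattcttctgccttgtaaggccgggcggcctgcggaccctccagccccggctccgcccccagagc
Cnn2: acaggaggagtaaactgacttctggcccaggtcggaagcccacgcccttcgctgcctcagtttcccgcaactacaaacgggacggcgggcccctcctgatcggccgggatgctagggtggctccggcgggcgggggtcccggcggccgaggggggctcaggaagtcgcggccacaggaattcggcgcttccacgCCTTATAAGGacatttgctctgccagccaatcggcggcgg

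The TEAD core of Cyr61 began 103 bases upstream of the start site. The CArG box of Myl9 began 161 bases upstream and that of Cnn2 56 bases upstream. In the 250 bases upstream of the start, 8 of the 10 genes could be searched on both strands. A TEAD core was found in 3 of them, Cyr61, Acta2 (146 bases upstream) and Tpm1 (56 bases upstream), and a CArG box in 2, Myl9 and Cnn2. The matches of Acta2 and Tpm1 lay upstream of the RefSeq start but inside annotated GENCODE M21 exons. Those of Cyr61, Myl9 and Cnn2 lay outside such exons. No TEAD core overlapped a CArG box. Among 32851 RefSeq promoter windows of the same length, 12.6% held a TEAD core and 1.47% a CArG box. With exon bases counted, each of the 2 motifs was thus present in a gene that was much lower in KO (Cyr61 and Acta2, Myl9) and in a gene that was close to level (Tpm1, Cnn2). Outside annotated exons this held for the CArG box only, since the TEAD core was then left in Cyr61 alone. No match was found in the windows of Cnn1, Cnn3 and Tpm2. All 250 bases of the Cnn3 window and 106 of the Tpm2 window lay in annotated exons, so no sequence outside exons was searched for Cnn3. The promoters of Ctgf and Tagln were not used here.

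Cyr61 and Ctgf, now also called Ccn1 and Ccn2, encode secreted matricellular CCN proteins that bind integrins and proteoglycans. Cyr61 (ENSMUSG00000028195.4, GRCm38 chromosome 3, 145646976 to 145649981) had 208 reads in WT and 8 in KO, or 17.2 and 0.519 CPM. It was 33.2-fold lower (16.5 to 78.0) in KO. Ctgf (ENSMUSG00000019997.11, chromosome 10, 24595442 to 24598683) had 548 and 43 reads, or 45.4 and 2.79 CPM, and was 16.3-fold lower (11.9 to 22.8). The intervals of Cyr61 and Ctgf overlap, so their order is not resolved. In 23.2% of its exonic bases Ctgf overlaps a noncoding gene on the opposite strand (Gm15270), so the values of both depend on whether strand was used in counting (not given in the sources used here).

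The other members of the CCN family with more than a few reads were low in KO too. Wisp1 (Ccn4), a Wnt-induced member, had 110 and 14 reads and was 10.04-fold lower (5.73 to 19.0). Wisp2 (Ccn5), which lacks the C-terminal domain of the family, had 95 and 5 reads and was 24.3-fold lower (10.04 to 76.5). Nov (Ccn3) had 2 reads in WT and 0 in KO, and Wisp3 (Ccn6) 1 and 4. The whole family held 964 reads in WT and 74 in KO. Ctgf made up 56.8% of them (53.7 to 60.0) in WT and 58.1% (46.1 to 69.5) in KO, and Cyr61 21.6% (19.0 to 24.3) and 10.8% (4.78 to 20.2). The intervals of the Ctgf share overlap widely. Those of the Cyr61 share overlap only between 19.0% and 20.2%, which does not show that its share was unchanged. The level of the whole family was 16.6-fold lower, at 4.80 against 79.8 CPM.

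Genes of the Hippo pathway, which regulates these targets, were mostly not counted in either direction. Of 16 tested genes of the Hippo list, 4 were lower by 2-fold or more and 0 higher. That is a larger share than over all genes tested, of which 3.95% were lower. The median log2 ratio was 0.02 beside 0.01 over all genes tested, so the list as a whole was not shifted. The 4 lower genes were the co-activator genes Yap1 and Wwtr1 (which encodes TAZ), the DNA-binding partner Tead1 and Amotl1, an angiomotin that binds YAP. Yap1, Wwtr1 and Tead1 had less than 1 CPM in KO and so passed the filter through WT alone. Yap1 had 67 reads in WT and 4 in KO and was 21.4-fold lower (7.98 to 80.8). Wwtr1 had 62 and 11 reads and was 7.20-fold lower (3.76 to 15.2), and Tead1 had 130 and 14 reads and was 11.9-fold lower (6.82 to 22.3). Tead2 had 26 and 17 reads and was 1.95-fold lower (1.02 to 3.84), while Tead3 and Tead4 had at most 2 reads in either library.

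Of the other genes of the Hippo list, the kinase genes differed by less than 2-fold. The kinase genes Lats1 and Lats2 had 82.3 and 74.6 CPM in WT and 99.0 and 65.3 CPM in KO. Stk4, which encodes the upstream kinase MST1, stood at 200.2 against 209 CPM, and Mob1b, an adaptor of the LATS kinases, at 37.2 against 52.0 CPM. Vgll4, whose product competes with YAP for TEAD, was 1.60-fold lower (1.38 to 1.85), and Taok1, a kinase upstream of MST1, was 1.28-fold higher at 241 against 189 CPM. Each of these genes had 346 reads or more in either library, while Yap1, Wwtr1 and Tead1 were at 0.907 CPM or less in KO.

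Other genes used as YAP targets were lower in part. Among 18 tested, 8 were lower by 2-fold or more and 0 higher, where 3.95% of all genes tested were lower. The median log2 ratio was -0.66. The lower ones were Ptpn14, Arhgef17, Tgfb2, Amotl2, Ccdc80, Rbms3, Ajuba and Nt5e, all with 118 reads or fewer in WT. All of them but Arhgef17 and Nt5e had less than 1 CPM in KO, so they passed through WT alone and had to be higher there. Arhgef17, a guanine nucleotide exchange factor gene, had 118 and 19 reads and was 7.93-fold lower (4.86 to 13.6). Ptpn14, a phosphatase that binds YAP, had 100 and 6 reads and was 21.3-fold lower (9.44 to 59.4). Ankrd1, a cardiac and YAP-induced ankyrin repeat gene, was below the filter with 16 and 2 reads.

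Genes of the same list with more reads differed by less than 2-fold. Myof, a membrane repair protein gene, stood at 488 CPM in WT and 739.9 CPM in KO, 1.52-fold higher. Gadd45b, a stress-response gene, stood at 21.4 and 36.6 CPM and was 1.70-fold higher, while its relative Gadd45a stood at 17.8 and 13.6 CPM. Axl, a receptor for apoptotic cells that macrophages also express, stood at 124 and 105 CPM. Restricted to genes averaging 10 CPM or more, the list had a median of 0.046, so its sign depends on the genes with few reads.

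Acta2 encodes smooth muscle alpha-actin, the defining actin of myofibroblasts. Acta2 (ENSMUSG00000035783.9, chromosome 19, 34241090 to 34255590) had 631 reads in WT and 45 in KO, or 52.2 and 2.92 CPM, and was 17.9-fold lower (13.2 to 24.8). The cytoplasmic actin genes Actb and Actg1 were 1.27-fold and 1.32-fold higher in KO, at 5106 against 4013 CPM and 528 against 400.1 CPM. Acta2 therefore made up 1.17% of actin reads (1.08 to 1.26) in WT and 0.0517% (0.0377 to 0.0692) in KO. Actg2, the enteric smooth muscle actin gene, had 15 reads in WT and was listed at 0 in KO. Acta1 and Actc1, the skeletal and cardiac genes, had at most 2 reads. The coding sequence of Acta2 shares 82.8% of its bases with Actb and a longest identical run of 47 bases, and 81.5% with Actg1 with a run of 56 bases. Read length and the handling of reads with several matches (not given in the sources used here) decide how well such genes are kept apart in counts.

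Calponins bind actin and inhibit myosin, and the 3 genes behaved in 3 ways. Cnn1 (ENSMUSG00000001349.5, chromosome 9, 22099216 to 22109630), the basic calponin of smooth muscle, had 2 reads in WT and 1 in KO, too few for a fold. Cnn2 (ENSMUSG00000004665.10, chromosome 10, 79988584 to 79996062), a form found in macrophages and many other motile cells, had 663 and 647 reads, or 54.9 and 41.9 CPM, and was 1.31-fold lower (1.17 to 1.46). Cnn3 (ENSMUSG00000053931.11, chromosome 3, 121426497 to 121458207), the acidic calponin of non-muscle and neural cells, had 158 and 13 reads, or 13.1 and 0.843 CPM, and was 15.5-fold lower (8.82 to 29.8). Cnn3 made up 19.2% of calponin reads (16.6 to 22.1) in WT and 1.97% (1.05 to 3.34) in KO, with Cnn2 at 80.6% and 97.9%. The coding sequences of the 3 calponins share at most 23 identical bases in a row. In 17.7% of its exonic bases Cnn3 overlaps another annotated locus on the opposite strand.

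Tropomyosins lie along actin filaments and set which motors and severing factors reach them. Tpm1 (ENSMUSG00000032366.15, chromosome 9, 67022590 to 67049406) had 1049 reads in WT and 1393 in KO, or 86.9 and 90.3 CPM, a KO over WT ratio of 1.04 (0.959 to 1.13). Tpm2 (ENSMUSG00000028464.16, chromosome 4, 43514711 to 43523765), the beta-tropomyosin gene of muscle and fibroblasts, had 127 and 12 reads, or 10.5 and 0.778 CPM, and was 13.5-fold lower (7.48 to 26.9). Tpm3 and Tpm4, the cytoskeletal tropomyosin genes, had 6070 and 3158 reads in WT and were 1.13-fold and 1.35-fold higher in KO. Tpm2 made up 1.22% of tropomyosin reads (1.02 to 1.45) in WT and 0.0771% (0.0399 to 0.135) in KO. Tpm1 made up 10.1% (9.51 to 10.7) and 8.95% (8.51 to 9.41). Tpm1 makes muscle and non-muscle isoforms from separate promoters and exons, and counts per gene cannot tell which isoform the reads came from. Within this family Tpm2 was the member with the fewest reads and the only one that was 2-fold lower.

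Myl9 encodes the regulatory light chain of smooth muscle and stress-fibre myosin. Myl9 (ENSMUSG00000067818.6, chromosome 2, 156775420 to 156781658) had 89 reads in WT and 1 in KO, or 7.37 and 0.0648 CPM. The ratio was 114 with an interval of 19.9 to 4540, so that only its lower end is bounded usefully. Myl12a and Myl12b, the non-muscle regulatory light chain genes, stood at 138 and 178 CPM in WT and 142 and 164 CPM in KO. Their coding sequences match that of Myl9 in 85.5% and 86.3% of bases, with a longest identical run of 35 bases. The essential light chain gene Myl6 stood at 272 and 335 CPM, and its relative Myl6b had 12 and 25 reads. Myl9 made up 1.24% of the light chain reads (0.994 to 1.52) in WT and 0.0101% (2.55e-04 to 0.0562) in KO.

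**Figure D2:**
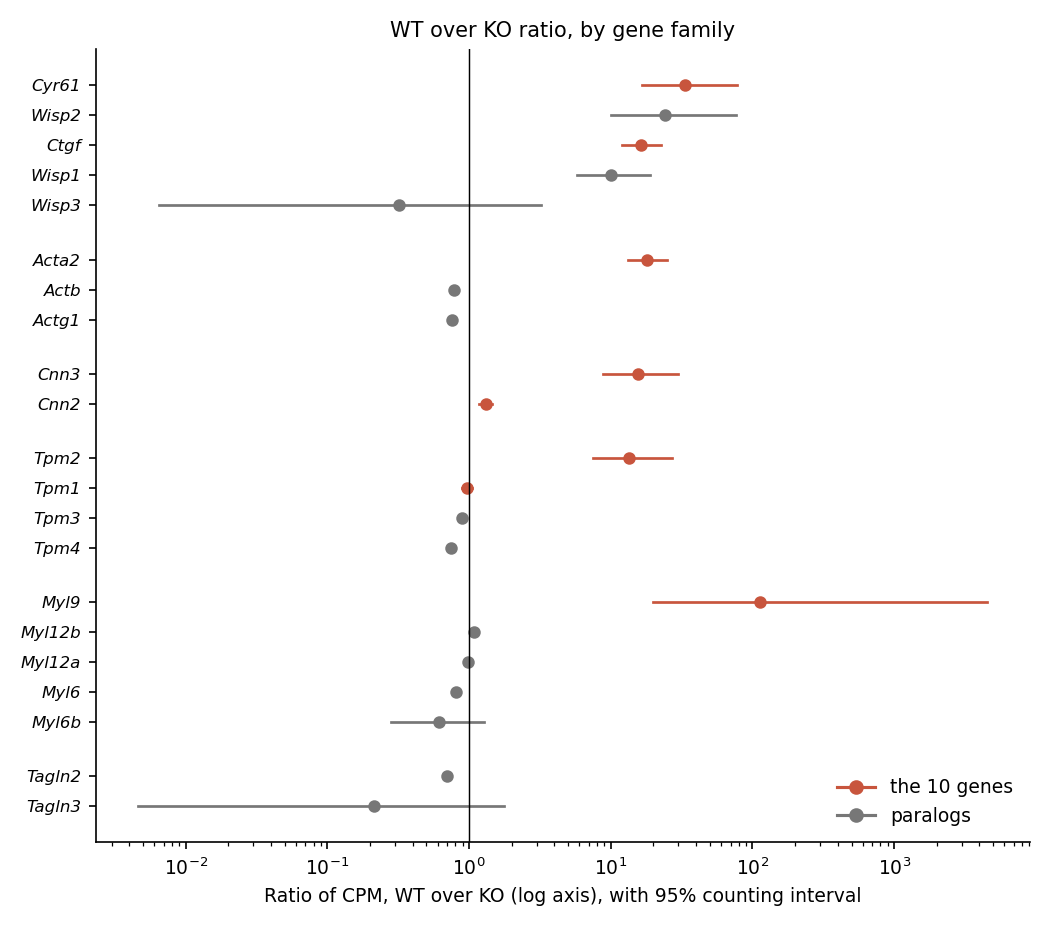
Ratio of CPM, WT over KO, on a log axis for the 10 genes and their paralogs, grouped by family, with 95% counting intervals. Each ratio rests on 1 library per genotype, and genes with 0 reads in a library or at most 3 reads in both are left out. Within the actin, calponin, tropomyosin and myosin light chain families 1 member each lies at 13.5 or above, while the others lie between 0.613 and 1.31.

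**Figure D3:**
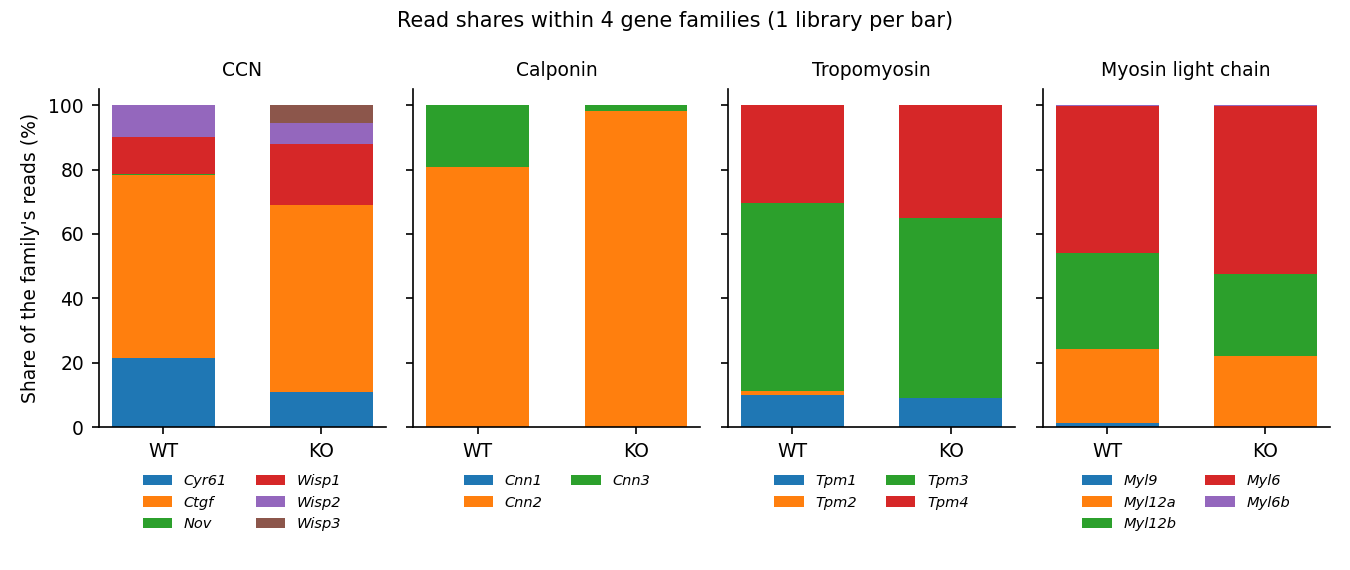
Share of each family's reads held by each member, in percent, in the WT and KO libraries. Cnn3 goes from 19.2% to 1.97% of calponin reads, while the myosin light chain and tropomyosin bars are made almost wholly of genes other than Myl9 and Tpm2 in both libraries.

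Tagln encodes transgelin (SM22), an actin-bundling protein of the calponin family that normally accompanies Acta2. Tagln (ENSMUSG00000032085.5, chromosome 9, 45929619 to 45936058) was listed at 0 in both libraries, although Acta2 had 631 reads in WT. In 67.9% of its exonic bases Tagln overlaps exons of 2 genes on the opposite strand, Pcsk7 and the antisense gene Gm48529. Pcsk7, a proprotein convertase gene, had 489 and 688 reads. Widely expressed genes such as Csnk2b and Ddx39b were also listed at 0 in both libraries, so a 0 in this table does not show that a transcript was absent. Myh11, the smooth muscle myosin heavy chain gene, was listed at 0 in both libraries as well. Tagln2, the transgelin of leukocytes, had 2789 and 5067 reads, or 231 and 328 CPM, and was 1.42-fold higher (1.36 to 1.49) in KO. Tagln3, a neuronal form, had 1 and 6 reads.

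Per kilobase of exon the order of the 10 genes differed between the libraries. In the WT library Acta2 was highest at 23.8 CPM per kilobase and Cnn2 next at 22.3, with overlapping counting intervals. Ctgf followed at 15.9, Tpm1 at 13.4, Cyr61 at 8.53, Myl9 at 6.34, Cnn3 at 4.31 and Tpm2 at 3.61. The neighbours Cyr61 and Myl9, and Cnn3 and Tpm2, were not separated beyond their intervals. In the KO library Cnn2 led at 17.0 CPM per kilobase and Tpm1 followed at 13.9, and the third, Acta2, was at 1.33. Acta2 and Ctgf (0.974) were not separated there, nor were Cnn3, Tpm2 and Cyr61, which lay between 0.257 and 0.277. These lengths are the union of GENCODE M21 exons, so a gene with many alternative exons such as Tpm1 (6485 bases) is placed lower than its transcripts would be.

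Other smooth muscle and adhesion genes were read beside them. Of 14 tested genes of that list 5 were lower by 2-fold or more and 0 higher, where 3.95% of all genes tested were lower. The median log2 ratio was -0.87. Cald1, which encodes the actin- and myosin-binding protein caldesmon, had 740 reads in WT and 83 in KO and was 11.4-fold lower (9.07 to 14.5). The other lower genes were Flnc, Fhl2, Mylk and Csrp2, each with 57 reads or fewer in WT. Flnc, Fhl2 and Mylk had less than 1 CPM in KO, so they passed the filter through WT alone and had to be higher there. Mylk, the kinase that activates smooth muscle myosin, had 21 and 8 reads. Pdlim7, Palld and Kank2, genes of stress fibres and adhesions, were 2.00-fold, 1.85-fold and 1.89-fold lower. Flna, the abundant filamin gene of macrophages, was higher at 1224 against 769 CPM, a ratio of 1.59. The terminal smooth muscle genes Lmod1, Des and Synpo2 had at most 5 reads in either library.

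The genes of SRF, of its MRTF co-activators and of the related ELK factors differed by less than 2-fold wherever they were tested. Srf stood at 50.3 CPM in WT and 48.7 CPM in KO. Mkl1 and Mkl2, which encode MRTF-A and MRTF-B, stood at 124 and 94.7 CPM in WT and 122 and 106 CPM in KO. Myocd, the cardiac and smooth muscle co-activator, had 2 reads in WT and 0 in KO. None of the 5 tested genes of this list was counted in either direction, and the median log2 ratio was 0.14. Likewise none of the 13 tested genes of the non-muscle motor list was counted, with a median of 0.10. Over all genes tested 3.95% were lower and 2.02% higher. The non-muscle motor list holds Myh9, the main myosin heavy chain of macrophages, at 1019 and 1076 CPM. Its most distant members were Myh10 at 1.91-fold lower, Rhoc at 1.78-fold higher and the talin gene Tln1 at 1.42-fold higher.

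Transforming growth factor beta induces Ctgf and Acta2 in fibroblasts, and genes of its pathway were mostly lower or level. Of 18 tested, 6 were lower by 2-fold or more and 0 higher, where 3.95% of all genes tested were lower. The median log2 ratio was -0.58. Tgfb3, 1 of the 6, had less than 1 CPM in KO and passed the filter through WT alone. The latent TGF-beta binding protein gene Ltbp2 was 5.43-fold lower, Tgfbi 2.10-fold lower and the feedback inhibitor Smad7 2.08-fold lower, the last not counted because the difference was just short of 2-fold once 0.5 CPM was added. Tgfb1, the main ligand gene of macrophages, stood at 340 and 403 CPM, and the receptor genes Tgfbr1 and Tgfbr2 were 1.48-fold and 1.61-fold lower. Restricted to genes averaging 10 CPM or more, the list had a median of -0.14.

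Fibroblast markers were lower in KO along with the 6 lower genes. Of 16 fibroblast markers, none of them among the 10 genes, all were detected in both libraries. At least 2-fold lower were 13, and 3 were neither (Fap, Thy1 and Pdpn), where 3.95% of all genes tested were lower. The median log2 ratio was -3.08. Their summed level was 1995 CPM in WT and 186 CPM in KO, 10.7-fold lower. Col5a1, Col1a1 and Col3a1, collagen chain genes, were 15.0-fold, 12.1-fold and 12.5-fold lower. Osteoblast and marrow stroma markers had 4 of 6 tested genes lower and 2 neither, where 3.95% of all genes tested were lower. The 4 lower genes, Sp7, Alpl, Cxcl12 and Foxc1, had less than 1 CPM in KO. They passed the filter through WT alone, so they had to be higher in WT. The summed level of these markers was 55.1 against 15.0 CPM, with Bglap listed at 0 in both libraries and Lepr and Ebf3 at 0 in KO. Alpl, an osteoblast phosphatase gene, was 31.6-fold lower and the chemokine gene Cxcl12 13.7-fold lower. In libraries made from a whole culture, fewer cells of a type and less RNA per cell cannot be told apart.

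Markers listed here for pericytes and smooth muscle cells were low in both libraries, and Acta2 and Cald1 were not among them. The 12 markers summed to 99 reads in WT and 39 in KO, or 8.20 and 2.53 CPM, with only Mcam tested. Myh11 was at 0 in both libraries, and Des, Rgs5, Actg2 and Myocd at 0 in KO. A 0 in these counts does not show that a transcript was absent. Skeletal muscle markers summed to 22 and 17 reads, with none of 10 tested and Myh4, Tnnc2 and Pvalb at 0 in both. Endothelial markers had 2 of 6 tested genes lower and summed to 53.7 and 57.2 CPM, with Cldn5 at 0 in both libraries. Their median log2 ratio was -0.48, and 5 of the 6 were below 0. Vwf, the exception, stood at 17.8 CPM in WT and 32.1 CPM in KO and weighed most in the KO sum. Egfl7, 1 of the 2 lower genes, passed the filter through WT alone. Platelet markers had 1 of 4 lower and summed to 44.5 and 40.8 CPM. Their median was -0.58, and Itgb3 alone held 24.6 CPM in WT and 30.3 CPM in KO. Neutrophil markers had 4 of 9 lower and summed to 705 and 505 CPM. Of the macrophage markers 1 of 16, Adgre1, was higher and the others neither. Over all genes tested 3.95% were lower and 2.02% higher. The part of any of these cell types in the differences of the 10 genes was not tested.

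**Figure D4:**
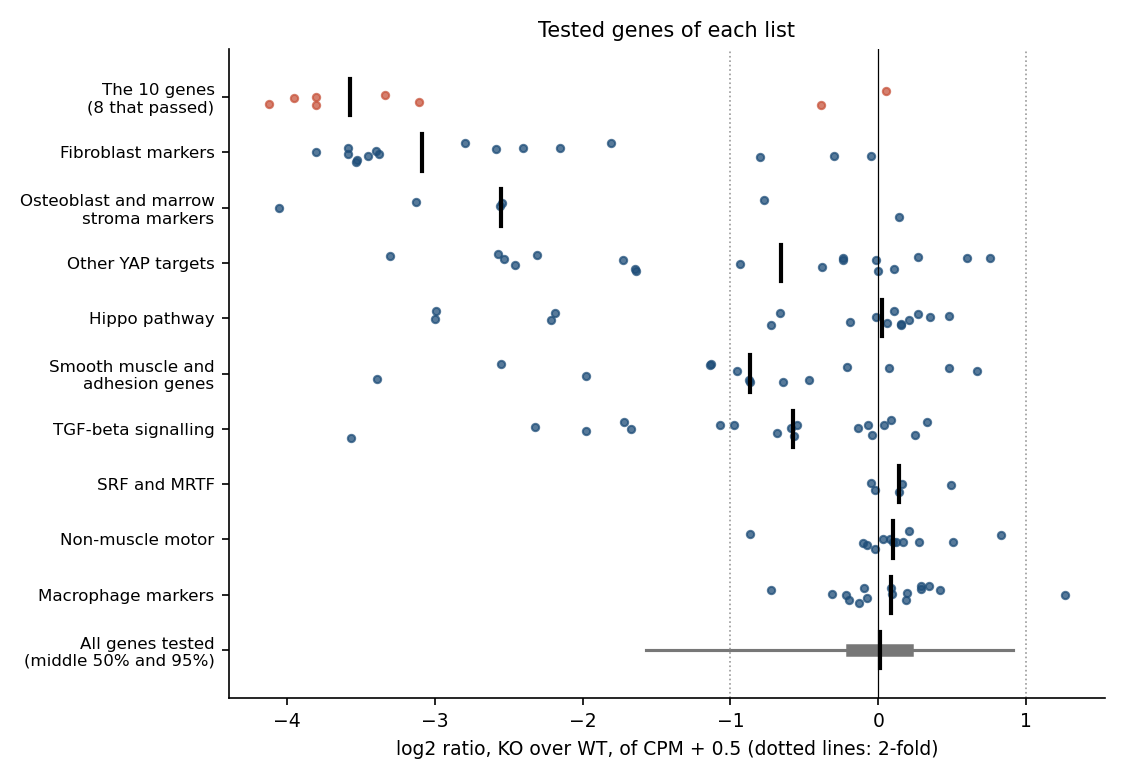
Log2 ratio, KO over WT, of CPM plus 0.5 for the tested genes of each list, 1 point per gene, with black bars at the median and dotted lines at 2-fold. Bars for all genes tested span the middle 50% and 95% of genes. The medians of the fibroblast markers and of the 8 tested genes of the 10 lie at -3.08 and -3.57, while SRF, non-muscle motor and macrophage genes lie at 0.14, 0.10 and 0.09.

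The 6 lower genes were then expressed per 1000 reads of the 16 fibroblast markers in the same library. These intervals count the error of the gene's own reads only. Cnn3 had 6.56 reads per 1000 marker reads in WT and 4.52 in KO, a ratio of 1.45 (0.825 to 2.79), and Tpm2 had 5.27 and 4.17, a ratio of 1.26 (0.699 to 2.51). Cnn3 and Tpm2 had the ratios closest to 1 among the 6 genes. Their intervals overlap those of the other genes of the 6, so this order is not resolved. Ctgf had 22.7 and 14.9, a ratio of 1.52 (1.11 to 2.13), and Acta2 had 26.2 and 15.6, a ratio of 1.67 (1.24 to 2.32). Cyr61 had 8.63 and 2.78, a ratio of 3.10 (1.55 to 7.29), and Myl9 had 3.69 and 0.348, a ratio of 10.6 (1.86 to 424). These values describe genes that the same contrast chose, and Col1a1 and Col1a2 held 8627 and 6313 of the 24095 marker reads in WT. Single markers differed from the sum as well, with Col5a1 at 15.0-fold (12.2 to 18.5) against 10.7-fold for the sum. Cnn2 and Tpm1 went the opposite way on this scale, from 27.5 to 225 and from 43.5 to 484 reads per 1000 marker reads, since they were nearly level while the markers were not.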

How the data were processed

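The deposited table holds raw read counts per gene symbol, per the file headers, with a column for WT and one for KO. The submitters' processing notes list HISAT2 and GRCm38 (counting program, annotation and strand setting not given in the sources used here). All 10 genes have their own row, and no row lacked a gene name. Counts were scaled to TMM effective library sizes (edgeR 4.0.16, R 4.3.3). Ratios of CPM carry exact Clopper-Pearson 95% intervals of the split of reads between the libraries (scipy 1.17.1), levels exact Poisson intervals, and reads without molecular identifiers are not independent molecules. A count of 3, the floor, is 0.248 CPM in WT and 0.194 CPM in KO. A quasi-likelihood fit cannot estimate spread from 1 library per genotype, and p-values were left out. The calculation was tested on simulated data with Poisson counting error only, so variation between cultures or mice was not covered.

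The members, lists and rules were chosen with earlier results of these data known. The text names the 10 genes, their paralogs, YAP, TEAD, SRF and MRTF genes at any level, and up to 4 genes per other pathway list and 3 per marker list averaging 5 CPM or more, by size of log2 ratio. Further list members were named after their values were seen. Gene positions, exon lengths and coding sequences came from GENCODE M21 (GRCm38), and promoters from RefSeq (GRCm38.p6), in which 8 of the 10 genes matched. Coding identity is over the longest complete coding sequence of each gene. Alternatives covered library scaling, the added CPM, the filter, the fold rule, depth and exon length. An item that the naming rule would include is not reported here.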

Additional observations from a re-analysis of the deposited data

How the results depend on the processing

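No paired analysis was possible because WT and KO were 1 library each, and for the same reason none could be left out. Of 141 recomputed values, 108 stayed within tolerance, which was 1.5 times for counts of genes, the counting interval for ratios and shares, and for a median the typical half-width of its genes' log2 counting intervals. That is wide for lists of few reads: the Hippo median of 0.02 became -0.05 with total counts and -0.10 with no filter, and the platelet median of -0.58 became -0.22 with no filter, all within it. DESeq2 size factors moved no value beyond tolerance. Total counts lowered every list median slightly, the macrophage one beyond tolerance, to 0.017. With 2 CPM added 313 genes were lower and 156 higher, and medians were -2.29 for the members, -2.69 for fibroblast and -1.37 for osteoblast and stroma markers. At a mean of at least 10 CPM fewer genes were tested, and 92 were lower and 112 higher, against 494 and 252 as reported. More genes were then higher than lower, the reverse of the reported order. Of the members 2 were lower (Ctgf and Acta2). Medians were -2.09 for the members, 0.046 for YAP targets, -0.14 for TGF-beta, -3.45 for fibroblast, -0.77 for stroma and 0.30 for platelet markers. The causes of the changed medians were not tested. Where the nearer interval bound had to reach 2-fold, 133 genes were higher. Scaling to the summed fibroblast markers gave WT over KO ratios of 3.10 for Cyr61, 1.52 for Ctgf, 1.67 for Acta2, 1.45 for Cnn3, 1.26 for Tpm2 and 10.6 for Myl9, 0.0899 for Tpm1 and, in the opposite direction, 0.122 for Cnn2. Per kilobase the WT shares became 1.42% for Acta2, 83.6% for Cnn2, 16.1% for Cnn3, 6.14% for Tpm1, 1.66% for Tpm2, 3.37% for Myl9, 28.2% for Cyr61 and 52.5% for Ctgf, and the KO share of Tpm1 5.22%. Depth limits the ratios of Cnn1 and Myl9, with 1 read each in KO.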

Other observations

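Among the 5 genes outside the 10, averaging 10 CPM or more, whose log2 ratio lay nearest to the median of the 8 tested members (-3.57) were Prrx1, Col3a1, Col1a1 and Sparc. Their log2 ratios ran from -3.59 to -3.53. With 2 libraries this likeness is a single ratio per gene. The genes were picked by the same ratio that chose the 10, so their nearness was fixed in advance. Prrx1, a transcription factor gene of limb and skeletal mesenchyme, had 479 WT and 45 KO reads and was 13.6-fold lower (10.01 to 18.9).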
